A study of Rattus norvegicus with 16 samples.

Results

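Genes that mark GABAergic interneurons, the inhibitory neurons of the hippocampus, were followed across primary rat neuron cultures in which the synaptic protein PRR7 had been lowered or raised. The set held 9 genes, chosen by name: Gad1, Gad2 and Slc32a1, the transcription factors Dlx1, Dlx2, Dlx5 and Lhx6, and the calcium-binding proteins Pvalb and Calb2. The choice was made with earlier results of these data known, so counts over the set are descriptions. Every probe that the array design assigns to a member was read, which gave 11 of the 41012 probes for transcripts. Of the 9 genes, 8 passed the filter on dim probes and were among the 22907 genes tested.

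In the cultures that received a virus with a nontargeting hairpin, the genes for GABA synthesis and vesicle loading and Dlx5 were at their lowest. Their means were intermediate in the PRR7 knockdown and highest in the cultures without virus and in the PRR7 overexpression. Pvalb read in the same order, but was well above background in 0 of 4 nontargeting and 2 of 4 knockdown samples. It entered the test through its brighter groups. Calb2 had another order and was low in the knockdown cultures only. Dlx1 and Dlx2 passed the test in no comparison, and Lhx6 was not well above background in any sample.

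The cultured hippocampal neurons came from Sprague-Dawley rat embryos of both sexes, taken at embryonic day 18 to 19. The not transduced group received no virus. The nontargeting group received a control lentivirus with an shRNA that has no target, and the knockdown group a lentivirus, built in the pTRIP vector, with an shRNA against the coding region of PRR7. The overexpression group received a lentivirus carrying full-length PRR7 in the FUGW vector. Each group held 4 samples, named biological replicates in the study design. The sources do not say whether the 4 came from separate litters, so p-values measure the spread between these samples. The share of cells that took up virus, and hence the share that carried each construct, is not given in the sources used here. No probe on the array was named Prr7 (0 of 41012), so the targeted transcript could not be used to check the labels.

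Total RNA was read on 8 Agilent arrays in 2 dyes. An array carried 2 samples of the same group, replicates 1 and 2 or replicates 3 and 4, so a group rests on 2 arrays. One slide, scanned in a single run, held the arrays of the knockdown and nontargeting groups, and the other slide held those of the remaining groups. The knockdown was thus set against the nontargeting control, and the overexpression against the cultures without virus, on the same glass. When nontargeting or knockdown samples are compared with not transduced samples, or overexpression with nontargeting or knockdown samples, group and slide cannot be told apart. Between 49.2% and 69.6% of the probes were well above background in a sample. Values are normalized log2 intensities, and a gene was called at a limma adjusted p below 0.05. A difference of 1 is a doubling of the normalized value. The scale is compressed for dim probes, so a fold is a size on this scale and not that of the transcript. The level of a probe cannot be set against that of another probe, and the number of arrays limits the precision.

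GABAergic interneurons make GABA from glutamate with the decarboxylases GAD67 (Gad1) and GAD65 (Gad2), and load it into vesicles with the transporter VGAT (Slc32a1). In the embryo they arise in the ganglionic eminences, where the homeobox genes Dlx1 and Dlx2, and later Dlx5, direct their production and migration. Lhx6 acts in those of the medial eminence, the source of parvalbumin cells. Pvalb and Calb2 encode parvalbumin and calretinin, calcium-binding proteins used to sort mature interneurons into classes, and calretinin is also made by Cajal-Retzius cells. These cells are a minority in hippocampal cultures, and in such bulk RNA fewer interneurons and less RNA per interneuron cannot be told apart.

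The probes are 60 bases long, and the array annotation places them on the rat build rn4. The sequences of 6 are shown. They are a pair of the Gad1 probes that were read beside the brightest one, the Gad2 probe, and the probes of Dlx1, Dlx2 and Lhx6. Dlx1 and Dlx2 passed no test, and Lhx6 was not tested. Capitals mark G and C.
Gad1 probe from base 853 of its transcript: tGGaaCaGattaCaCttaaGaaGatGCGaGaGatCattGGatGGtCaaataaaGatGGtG
Gad1 probe from base 1136: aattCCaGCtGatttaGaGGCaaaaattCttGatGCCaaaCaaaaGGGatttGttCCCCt
Gad2: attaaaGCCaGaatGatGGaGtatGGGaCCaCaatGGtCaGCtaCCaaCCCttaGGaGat
Dlx1: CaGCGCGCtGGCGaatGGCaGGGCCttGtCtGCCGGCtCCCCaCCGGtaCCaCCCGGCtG
Dlx2: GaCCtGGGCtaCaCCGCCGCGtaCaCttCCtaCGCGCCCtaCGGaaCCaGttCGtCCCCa
Lhx6: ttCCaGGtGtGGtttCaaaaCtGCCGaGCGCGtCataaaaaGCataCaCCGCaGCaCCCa

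G and C make up 38.3% of both Gad1 probes, 45% of the Gad2 probe, 65% of the Dlx2 probe and 73.3% of the Dlx1 probe. The 3 Gad1 probes lie on chromosome 3, at chr3:52813028-52813087, chr3:52815087-52817521 and chr3:52828914-52828973 on the plus strand. The second of them spans 2435 bases of the genome with 60 bases and so crosses a splice junction. The Lhx6 probe also crosses a junction, at chr3:15201920-15202161 on the minus strand. The Gad2 probe lies at chr17:96321562-96321621 and the Slc32a1 probe at chr3:149346783-149346842, both on the plus strand. The Dlx1 probe, at chr3:53840022-53840081 on the plus strand, and the Dlx2 probe, at chr3:53853700-53853759 on the minus strand, are neighbours. The Dlx5 probe lies at chr4:31778601-31778660, the Pvalb probe at chr7:116114699-116114758 and the Calb2 probe at chr19:40023194-40023254, each on the minus strand.

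**Figure D1:**
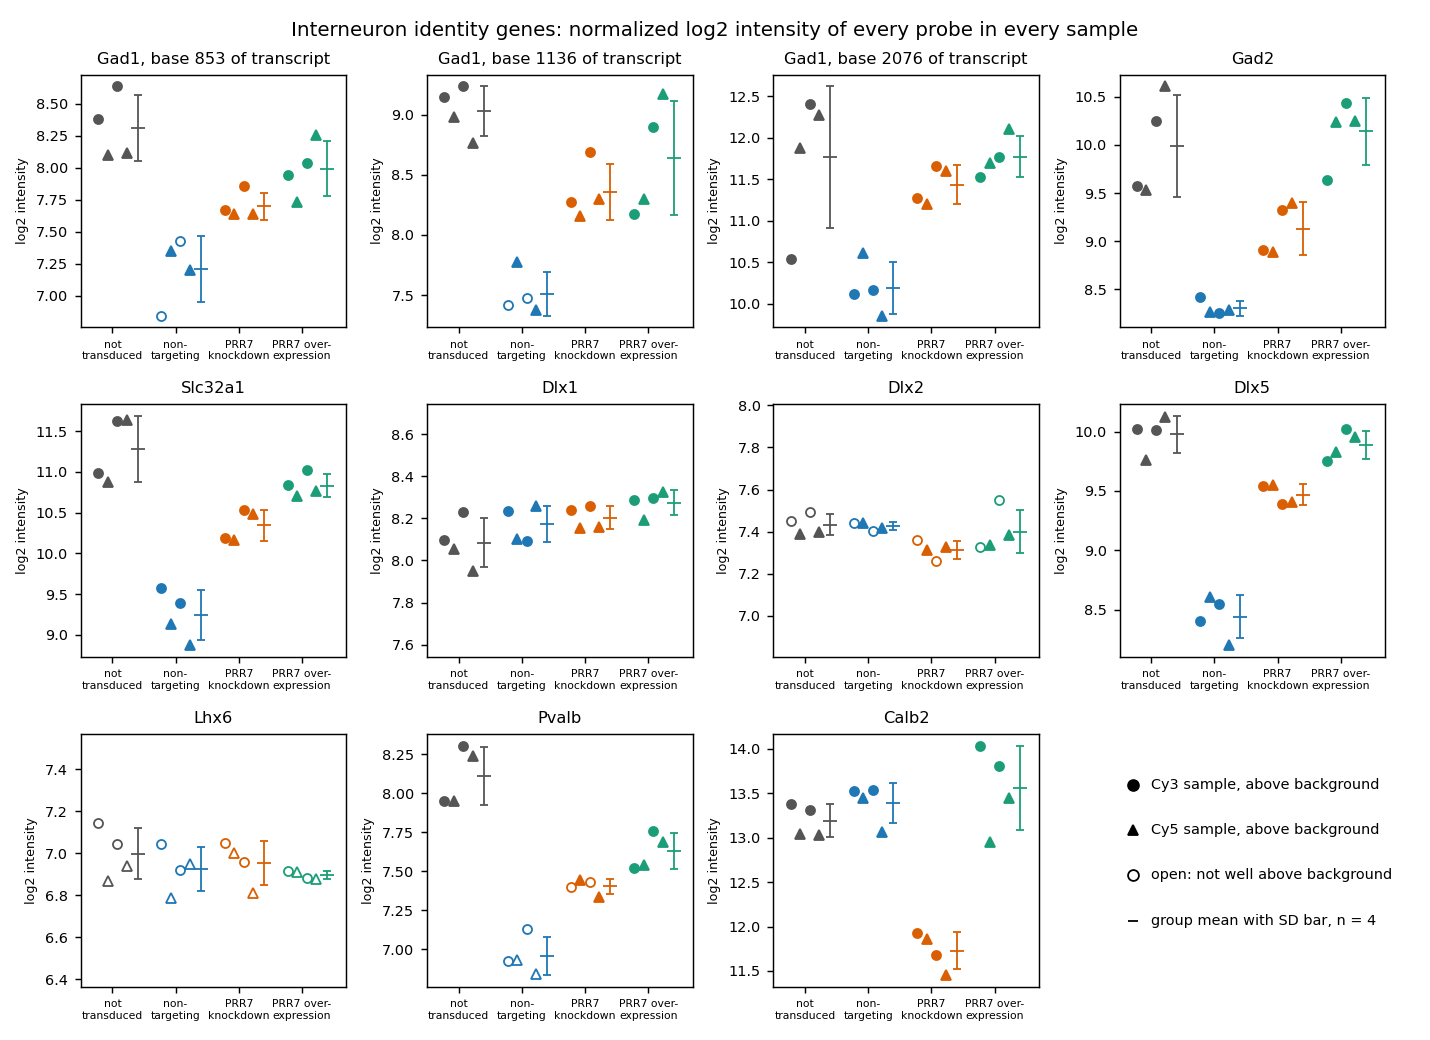
Normalized log2 intensity (y axis) of the 11 probes of the 9 genes in each of the 16 samples, by group (x axis), with circles for Cy3 and triangles for Cy5 samples, open symbols for values not well above background, and bars for the mean and SD of 4 samples. Slc32a1, Gad2, Dlx5 and Pvalb are lowest in the nontargeting samples, Calb2 is lowest in the knockdown samples (11.45 to 11.93), and Dlx1, Dlx2 and Lhx6 stay within narrow ranges. The nontargeting values of Pvalb are not well above background.

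The clearest pattern among the GABA genes was that of Slc32a1, the vesicular GABA transporter. Its log2 intensities were 10.99, 10.87, 11.63 and 11.63 in not transduced replicates 1 to 4, and 9.58, 9.13, 9.38 and 8.87 in the nontargeting replicates. They were 10.19, 10.16, 10.53 and 10.49 in the knockdown replicates, and 10.84, 10.70, 11.02 and 10.77 in the overexpression replicates. The nontargeting samples lay below every other sample, and the knockdown samples lay above them and below every sample of the other 2 groups. The not transduced and overexpression samples overlapped.

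Slc32a1 was higher in the knockdown than in the nontargeting group by 1.10 on the log2 scale (SE 0.21, 95% confidence interval 0.65 to 1.55, adjusted p = 0.00154), a 2.15-fold difference. It was lower in the nontargeting than in the not transduced group by 4.12-fold (log2 difference -2.04, SE 0.21, adjusted p = 1.13e-05). The knockdown group was in turn 1.92-fold below the not transduced group (log2 difference -0.94, SE 0.21, adjusted p = 0.0104). That last call was lost without the array of not transduced replicates 3 and 4 (log2 difference -0.59, adjusted p = 0.107) and without the array of knockdown replicates 1 and 2 (-0.77, adjusted p = 0.12), and with each array as 1 value (-0.94, adjusted p = 0.0691). Overexpression and nontargeting differed by 1.59 (SE 0.21, adjusted p = 9.69e-05), and overexpression and not transduced by -0.45 (95% confidence interval -0.90 to 0.00, adjusted p = 1.00).

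Gad2, the decarboxylase tied to synaptic vesicles, was also lowest in the nontargeting group, with the knockdown group next. Its values were 9.57, 9.53, 10.25 and 10.61 without virus and 8.42, 8.27, 8.25 and 8.28 with the nontargeting virus. They were 8.90, 8.89, 9.33 and 9.40 in the knockdown and 9.64, 10.24, 10.44 and 10.25 in the overexpression. The nontargeting samples were the lowest and the most alike (SD 0.08, n = 4), the knockdown samples lay between, and the not transduced and overexpression samples overlapped.

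Gad2 rose by 0.82 from nontargeting to knockdown (SE 0.27, adjusted p = 0.0423), or 1.77-fold, a call close to the threshold. It was 3.21-fold lower in the nontargeting than in the not transduced group (log2 difference -1.68, SE 0.27, adjusted p = 0.00047) and 3.57-fold higher in the overexpression than in the nontargeting group (1.83, SE 0.27, adjusted p = 0.000246). Between knockdown and not transduced the difference was -0.86 (SE 0.27, adjusted p = 0.0587), which did not pass. The knockdown call was lost in 13 of 24 fits that left out a sample or an array. These were the fits without not transduced replicate 1 or 3, nontargeting replicate 2, 3 or 4, knockdown replicate 1, 3 or 4, overexpression replicate 4, and any nontargeting or knockdown array. The adjusted p then lay between 0.0504 and 0.307, and the difference stayed between 0.59 and 1.06 in all 24. Over all 34 alternatives the difference reached 1.34. The nontargeting signals of Gad2 were dim (140 to 256 minus background), so its folds against that group hold for the compressed scale.

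Gad1 was read by 3 probes. The brightest, from base 2076 of the transcript, is the one that entered the test across genes. It read 10.54, 11.88, 12.40 and 12.27 without virus, 10.12, 10.61, 10.16 and 9.86 with the nontargeting virus, 11.27, 11.20, 11.67 and 11.60 in the knockdown, and 11.52, 11.70, 11.77 and 12.11 in the overexpression. Not transduced replicate 1 lay within the nontargeting range, at 10.54 against 11.88 for the next not transduced sample, and the knockdown samples lay above all nontargeting samples.

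The probe from base 1136 read 9.14, 8.98, 9.23 and 8.76 without virus, 7.42, 7.78, 7.48 and 7.37 with the nontargeting virus, 8.28, 8.16, 8.69 and 8.29 in the knockdown, and 8.18, 8.30, 8.90 and 9.17 in the overexpression. The probe from base 853 read 8.38, 8.10, 8.64 and 8.11, then 6.85, 7.35, 7.43 and 7.20, then 7.67, 7.64, 7.86 and 7.64, then 7.95, 7.74, 8.04 and 8.25 in the same order of groups. In these 2 probes not transduced replicate 1 was among the higher samples of its group, and the nontargeting samples did not overlap any other group. Both were well above background in 2 of the 4 nontargeting samples, those labelled with Cy5, and in every sample of the other groups.

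The brightest Gad1 probe was 2.38-fold higher in the knockdown than in the nontargeting group (log2 difference 1.25, SE 0.42, 95% confidence interval 0.36 to 2.14, adjusted p = 0.0451). The probe from base 1136 differed by 0.84 (SE 0.26, adjusted p = 0.0300 over all 27294 probes kept), and that from base 853 by 0.49 (SE 0.23, adjusted p = 0.154), which did not pass. Between nontargeting and not transduced all 3 probes passed, at -1.58 (SE 0.42, adjusted p = 0.0138), -1.52 (SE 0.26, adjusted p = 0.00072) and -1.10 (SE 0.23, adjusted p = 0.00348). All 3 also passed between overexpression and nontargeting, at 1.59 (adjusted p = 0.0132), 1.12 (adjusted p = 0.00598) and 0.79 (adjusted p = 0.0243). None passed between knockdown and not transduced (-0.33, -0.67 and -0.61) or between overexpression and not transduced (0.00, -0.39 and -0.32).

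The knockdown call of the brightest Gad1 probe was lost in 18 of 24 fits that left out a sample or an array, at an adjusted p between 0.0518 and 0.235. It held only without not transduced replicate 1 or 2, nontargeting replicate 3, knockdown replicate 2, or either not transduced array. The difference stayed between 1.05 and 1.45. Its difference between nontargeting and not transduced missed the threshold without the array of not transduced replicates 3 and 4 (-1.02, adjusted p = 0.153) and without that of nontargeting replicates 3 and 4 (-1.40, adjusted p = 0.0506). The difference between overexpression and nontargeting missed it without the array of overexpression replicates 3 and 4 (1.42, adjusted p = 0.108).

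Among the transcription factors, Dlx5 moved and Dlx1 and Dlx2 did not pass the test. Dlx5, one of the Dlx genes expressed in migrating and maturing interneurons, read 10.02, 9.76, 10.01 and 10.12 without virus and 8.41, 8.60, 8.55 and 8.20 with the nontargeting virus. It read 9.54, 9.55, 9.39 and 9.41 in the knockdown and 9.75, 9.83, 10.02 and 9.95 in the overexpression. The nontargeting samples were lowest, the knockdown samples formed a narrow range of their own above them, and the remaining groups overlapped.

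Dlx5 was 2.04-fold higher in the knockdown than in the nontargeting group (log2 difference 1.03, SE 0.15, 95% confidence interval 0.70 to 1.36, adjusted p = 0.00023). This call, like those of Slc32a1 and Calb2, held in all 34 alternatives, with a Dlx5 difference of 0.94 to 1.61. The nontargeting signals of Dlx5 were dim (144 to 350 minus background), so its folds against that group hold for the compressed scale. The nontargeting group was 2.90-fold below the not transduced group (-1.54, SE 0.15, adjusted p = 9.2e-06) and 2.73-fold below the overexpression group (1.45, SE 0.15, adjusted p = 1.56e-05). Knockdown and not transduced differed by -0.51 (SE 0.15, adjusted p = 0.0497), at the threshold. That call was lost in 18 of 24 fits that left out a sample or an array, at an adjusted p of up to 0.266, and held without not transduced replicate 2, nontargeting replicate 1, 3 or 4, or either nontargeting array. It also missed the threshold in 6 of the other alternatives, at an adjusted p between 0.0512 (the mean of all probes of a gene) and 0.309 (the deposited values, with a difference of -0.36).

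Dlx1, a regulator of interneuron production and survival, lay between 7.95 and 8.23 in the not transduced, 8.09 and 8.26 in the nontargeting, 8.16 and 8.26 in the knockdown, and 8.19 and 8.33 in the overexpression samples. All 4 groups overlapped, and its probe was well above background in all 16 samples. The knockdown against nontargeting difference was 0.03 (95% confidence interval -0.21 to 0.27, adjusted p = 0.892), and the other 4 lay between 0.09 and 0.19, with the interval for nontargeting against not transduced running from -0.15 to 0.33. On this scale the interval between knockdown and nontargeting leaves out 1.03, the difference measured for Dlx5. The Dlx1 probe was dim, with signals minus background of 119 to 295.5, and the scale is compressed for dim probes. The interval therefore holds for this probe's readings and does not bound the difference of the transcript.

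Dlx2, the partner of Dlx1 in the same gene pair, lay between 7.26 and 7.55 in all 16 samples. It was well above background in all 8 Cy5 samples and in 0 of the 8 Cy3 samples, so its level was at the edge of what the array reads. Knockdown samples (7.26 to 7.36) did not overlap nontargeting samples (7.40 to 7.44), as was also true of 37.9% of all genes tested. The difference of -0.11 did not pass (SE 0.09, adjusted p = 0.451). Lhx6, the factor of medial eminence interneurons, lay between 6.79 and 7.15 and was not well above background in any of the 16 samples, so it was not tested.

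Of the calcium-binding proteins, Pvalb, which marks fast-spiking basket cells in the mature hippocampus, was dim. It read 7.95, 7.95, 8.30 and 8.24 without virus, 6.93, 6.93, 7.13 and 6.84 with the nontargeting virus, 7.40, 7.44, 7.43 and 7.34 in the knockdown, and 7.52, 7.54, 7.76 and 7.69 in the overexpression. The 4 groups did not overlap. The probe was well above background in all 4 not transduced and all 4 overexpression samples, in the 2 Cy5 knockdown samples, and in 0 of the 4 nontargeting samples. It therefore passed the filter through the groups in which it was brighter.

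The nontargeting level of Pvalb is only a bound. Each nontargeting sample was set at the higher of the probe's own value and that sample's lowest detected signal. Pvalb was then at least 2.03-fold higher in the not transduced and at least 1.45-fold higher in the overexpression group. For the knockdown the figure was 1.24-fold, which is no strict bound, since only 2 of 4 knockdown values were well above background. Limma called all of these differences (adjusted p = 1.55e-05, 0.00129 and 0.017 in that order). The probe entered the test through its brighter groups, so these calls are no support of their own. The knockdown call was lost without the array of nontargeting replicates 1 and 2 (adjusted p = 0.052), of knockdown replicates 1 and 2 (0.1) or of knockdown replicates 3 and 4 (0.0802), and with each array as 1 value (0.0711). Knockdown, measured above background in 2 of 4 samples, was 1.63-fold below not transduced (log2 difference -0.71, SE 0.12, adjusted p = 0.00214). That call was lost with Agilent's processed signals (log2 difference -1.77, adjusted p = 0.13). Overexpression lay below not transduced by -0.48 (SE 0.12, unadjusted p = 0.00131, adjusted p = 0.805), which did not pass.

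Calb2, or calretinin, was the one member with a called fall in the knockdown against nontargeting. It read 13.38, 13.04, 13.31 and 13.03 without virus, 13.53, 13.44, 13.54 and 13.06 with the nontargeting virus, 11.93, 11.86, 11.68 and 11.45 in the knockdown, and 14.04, 12.95, 13.80 and 13.44 in the overexpression. The knockdown samples lay more than 1 log2 unit below every other sample, and the other 3 groups overlapped.

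Calb2 was 3.17-fold lower in the knockdown than in the nontargeting group (log2 difference -1.67, SE 0.23, 95% confidence interval -2.16 to -1.17, adjusted p = 0.000129) and 2.76-fold lower than in the not transduced group (-1.46, SE 0.23, adjusted p = 0.00117). It did not pass between nontargeting and not transduced (0.20, 95% confidence interval -0.30 to 0.70, adjusted p = 0.576), between overexpression and nontargeting (0.16, adjusted p = 0.665) or between overexpression and not transduced (0.37, 95% confidence interval -0.13 to 0.86, adjusted p = 1.00).

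Calretinin is shared with Cajal-Retzius cells, early neurons of the hippocampal surface, so their other markers were read. Of 8 listed genes 4 were tested. None passed between knockdown and nontargeting, where 21.5% of all genes passed, and 4 genes are too few to set against that share. Reln, the secreted protein reelin, differed by 0.18 (adjusted p = 0.457) and the chemokine receptor gene Cxcr4 by -0.14 (adjusted p = 0.626). Nhlh2 differed by -0.21 (adjusted p = 0.107) and Tp73 by 0.14 (adjusted p = 0.33). Tp73 was well above background in 4 of 16 samples, and Lhx1 and Lhx5, which also define these cells, in 0. The mean log2 level of the 4 genes was 8.38 to 8.46 in the knockdown and 8.41 to 8.44 in the nontargeting samples. It was 8.75 to 8.97 in the not transduced and 8.79 to 8.86 in the overexpression samples, where Reln and Cxcr4 were both higher than with the nontargeting virus. Between overexpression and nontargeting 2 of the 4 passed, where 22.8% of all genes passed. Against not transduced samples 2 of the 4 were lower in the nontargeting group and 2 in the knockdown group, where 22.5% and 10.1% of all genes passed. The part of Cajal-Retzius cells in the Calb2 result was not tested.

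**Figure D2:**
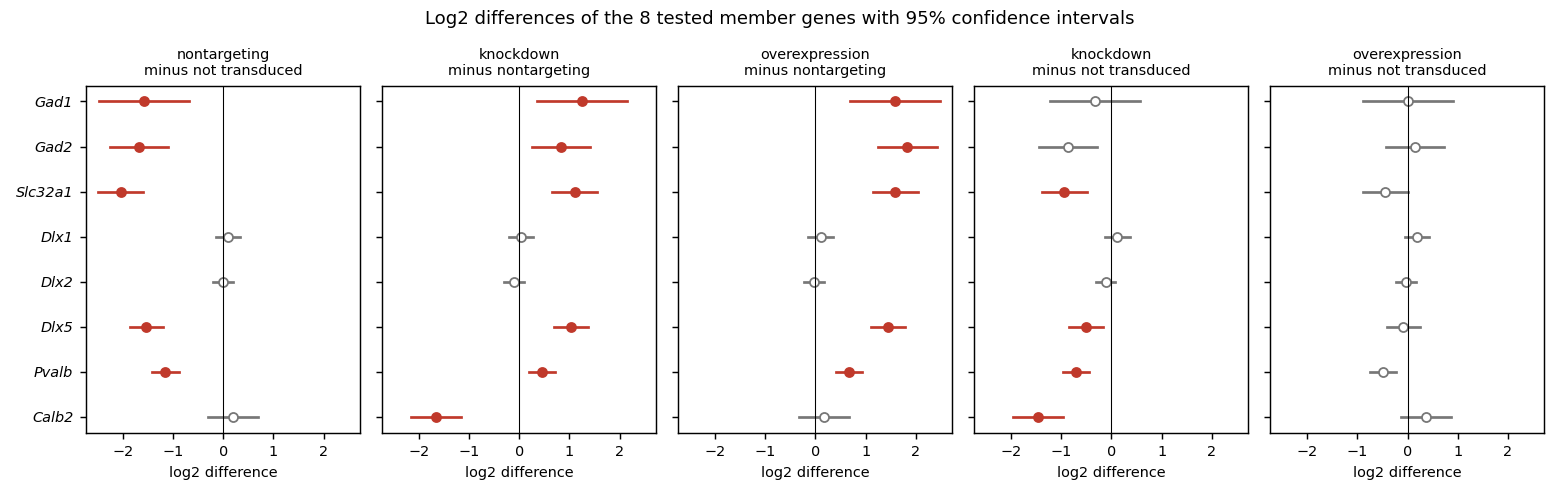
Fitted log2 differences (x axis) of the 8 tested genes (y axis) in the 5 comparisons, with 95% confidence intervals. Filled red points passed an adjusted p below 0.05 and open grey points did not. Calb2 is negative where the knockdown is compared, at -1.67 and -1.46, and no gene passed between overexpression and not transduced. Pvalb was above background in 0 of 4 nontargeting samples, so its points against that group are no measured sizes.

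Counted together, 5 of the 8 tested members rose and 1 fell between nontargeting and knockdown. Without Pvalb, whose nontargeting level is only a bound, 4 of 7 rose and 1 fell, a count added after the data were seen. Of all genes tested 10.4% rose, 11% fell and 21.5% passed in either direction. Without the array of knockdown replicates 3 and 4, or that of replicates 1 and 2, or that of nontargeting replicates 1 and 2, 3 members passed. With each array as 1 value 3 passed too, namely Slc32a1, Dlx5 and Calb2. The median log2 difference was 0.63 over the 8 members, 0.82 over the 7 without Pvalb and -0.03 over all genes.

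From not transduced to nontargeting 5 members fell and 0 rose, where 10.9% of all genes fell, 11.6% rose and 22.5% passed in all. Without Pvalb 4 of 7 fell. The tested probes of Gad2, Slc32a1, Dlx5 and Pvalb did not overlap between these groups, as did not 32.6% of all genes. The median was -1.35 over the 8 members, -1.54 over the 7 and 0.03 over all genes. Between overexpression and nontargeting 5 members rose and 0 fell, where 10.4% of all genes rose, 12.4% fell and 22.8% passed, and the same 5 did not overlap, against 37.1% of all genes. Without Pvalb 4 of 7 rose. Between knockdown and not transduced 4 fell and 0 rose, against 5.26% of all genes that fell, 4.86% that rose and 10.1% that passed. Pvalb, among the 4, was well above background in 2 of 4 knockdown samples and entered the test through its brighter groups. With only probes above background in all 16 samples, 2 of 6 members fell. Gad2, Slc32a1, Dlx2, Dlx5, Pvalb and Calb2 did not overlap between knockdown and not transduced, against 29.6% of all genes. Several of these comparisons share the nontargeting or the not transduced samples, and the 3 that span the slides carry the slide with the group.

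Within the other slide, between overexpression and not transduced, 0 of 8 members passed in limma, as against 1 gene or 0.00437% of all genes. At an unadjusted p below 0.05 there were 2 members, Slc32a1 and Pvalb, both lower in the overexpression, and 896 genes in all. Pvalb was the only tested member whose groups did not overlap there, which 6.84% of all genes did not. Knockdown and overexpression were not compared by a test. They lie on different slides, so group and slide cannot be told apart. Gad2, Slc32a1, Dlx5, Pvalb and Calb2 did not overlap between these 2 groups, with the overexpression samples higher for each, where 36.2% of all genes did not overlap. The brightest Gad1 probe overlapped (11.20 to 11.67 against 11.52 to 12.11).

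For Slc32a1 and Gad2 the 2 arrays of a group could differ by more than the samples of an array. In the not transduced group the array means of Slc32a1 were 10.93 for replicates 1 and 2 and 11.63 for replicates 3 and 4, those of Gad2 were 9.55 and 10.43, and those of Pvalb 7.95 and 8.27. The brightest Gad1 probe had not transduced array means of 11.21 and 12.33, and replicates 1 and 2 themselves read 10.54 and 11.88. In the knockdown group the array means of Slc32a1 were 10.17 and 10.51 and those of Gad2 8.90 and 9.36. In the nontargeting group replicates 3 and 4 were the lower array for both, at 9.35 and 9.13 for Slc32a1 and 8.34 and 8.27 for Gad2. Dlx5 varied less, with not transduced array means of 9.89 and 10.07 and knockdown array means of 9.54 and 9.40.

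Other genes that handle GABA were read beside the members. Of 6 listed 5 were tested, since the transporter gene Slc6a13 was in 0 of 16 samples well above background. Abat, the transaminase that breaks GABA down, rose from nontargeting to knockdown by 0.46 (SE 0.15, adjusted p = 0.0413). No other of the 5 passed there, where 21.5% of all genes passed. Between nontargeting and not transduced 1 of the 5 was higher and 2 were lower, where 22.5% of all genes passed. Abat was lower in nontargeting than in not transduced samples (-0.66, SE 0.15, adjusted p = 0.00599). Aldh5a1, the next enzyme of GABA breakdown, was higher with the nontargeting virus than without virus (0.41, SE 0.12, adjusted p = 0.022). Slc38a1, a glutamine transporter, differed by 0.11 between knockdown and nontargeting (adjusted p = 0.781). The median of the 5 was 0.05 between knockdown and nontargeting and -0.62 between nontargeting and not transduced.

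Of 15 further transcription factors of interneurons 13 were tested, and 2 rose and 1 fell between nontargeting and knockdown, where 10.4% of all genes rose and 11% fell. Sox6, a factor of medial eminence interneurons, rose by 0.39 between nontargeting and knockdown (SE 0.13, adjusted p = 0.0397), and Satb1 fell by 0.62 (SE 0.20, adjusted p = 0.0407). Between nontargeting and not transduced 4 fell and 1 rose, where 10.9% of all genes fell and 11.6% rose. The 1 that rose, Lhx8, was dim and well above background in 8 of 16 samples. Npas1, a transcription factor of interneurons from the caudal and medial eminences, was among those that fell (-0.66, SE 0.17, adjusted p = 0.0106). The median of the 13 was 0.10 between knockdown and nontargeting and -0.24 between nontargeting and not transduced. Dlx6 had no probe among those read.

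Of 16 subtype genes 13 were tested, with 2 higher and 1 lower in the knockdown than in the nontargeting group, where 10.4% of all genes were higher and 11% lower. Nxph1, which encodes the secreted neurexin ligand neurexophilin, had group means of 12.16, 9.51, 11.16 and 12.33 in the not transduced, nontargeting, knockdown and overexpression groups. It rose by 1.65 from nontargeting to knockdown (SE 0.19, adjusted p = 2.57e-05). Npy, neuropeptide Y, rose by 0.69 (SE 0.17, adjusted p = 0.00833), and Cck, cholecystokinin, fell by 0.54 (SE 0.18, adjusted p = 0.0416).

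Between nontargeting and not transduced 5 of the 13 fell and 0 rose, among them Nxph1 (-2.65, SE 0.19, adjusted p = 5.09e-07), Sst (-1.52, SE 0.27, adjusted p = 0.0011) and Npy (-0.86, SE 0.17, adjusted p = 0.00197). Of all genes 10.9% fell and 11.6% rose there. Kcnc2, also among the 5, was dim and well above background in 7 of 16 samples. Sst, the neuropeptide somatostatin, had means of 14.48 without virus, 12.97 with the nontargeting virus, 12.95 in the knockdown and 14.25 in the overexpression. Between knockdown and nontargeting it differed by -0.02 (SE 0.27, adjusted p = 0.973). The median of the 13 was 0.18 between knockdown and nontargeting and -0.51 between nontargeting and not transduced.

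**Figure D3:**
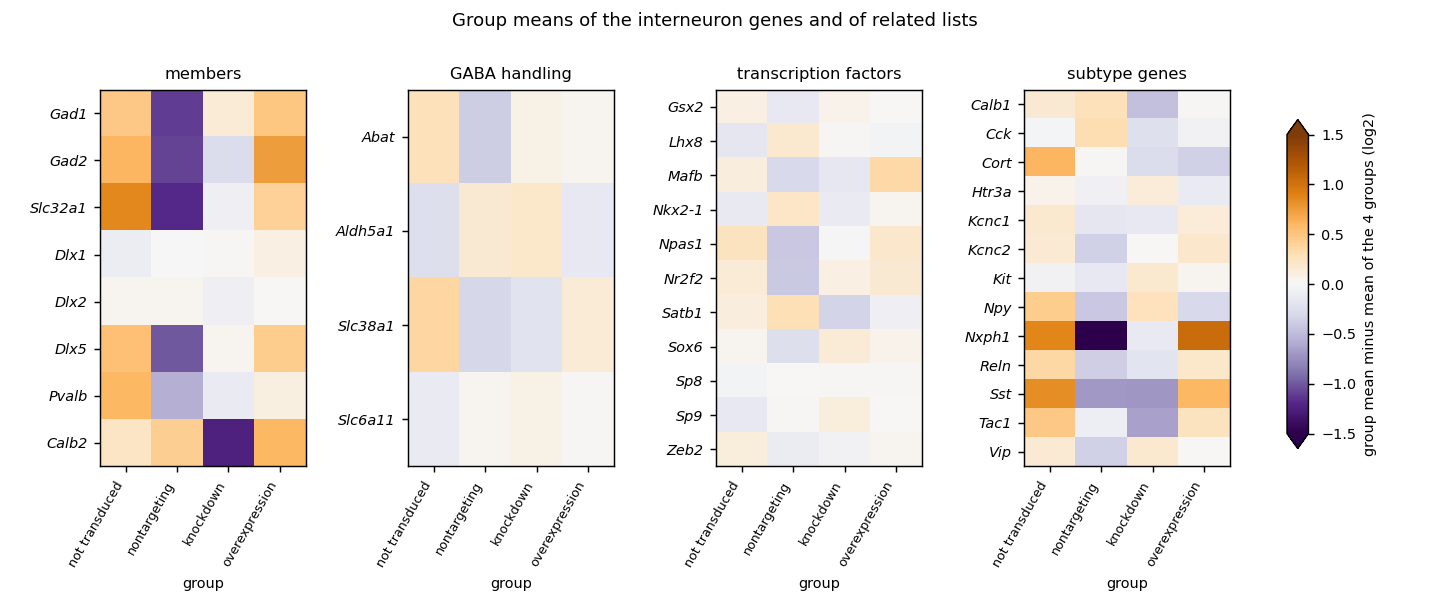
Group means of the tested members and of the genes reported here from 3 related lists (rows, genes; columns, the 4 groups), each shown as the log2 difference from the mean of the 4 group means, with purple below and orange above it. Nxph1 is lowest in the nontargeting column (9.51), as are Gad1, Gad2, Slc32a1, Dlx5 and Pvalb, while Sst is low in both the nontargeting and knockdown columns. Pvalb was well above background in 0 of 4 nontargeting samples, so its value there is no measured level.

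Markers of other cells were read beside the members. Of all genes, 21.5% passed between knockdown and nontargeting and 22.5% between nontargeting and not transduced. Of 12 excitatory neuron genes 5 were higher and 1 lower in the nontargeting than in the not transduced group, with Neurod1 at 0.91 (SE 0.22, adjusted p = 0.00799), and 1 was higher in the knockdown than in the nontargeting group. The mean log2 level of the 10 with values in all samples was 10.51 to 10.65 without virus, 10.77 to 10.98 with the nontargeting virus, 10.89 to 11.06 in the knockdown and 10.61 to 10.81 in the overexpression. Of 11 general neuron genes 0 were higher and 1 was lower in the nontargeting than in the not transduced group, and 1 rose and 1 fell between nontargeting and knockdown.

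Glial genes were read beside the same shares of all genes, 21.5% and 22.5%. Of 10 oligodendrocyte lineage genes 3 rose and 0 fell between nontargeting and knockdown, and 2 fell between not transduced and nontargeting. Of 10 astrocyte genes 3 rose and 1 fell between nontargeting and knockdown, and 3 fell and 0 rose between not transduced and nontargeting. Of the 6 microglial genes tested none passed in either of those comparisons, and Aif1, Itgam and Cx3cr1 were well above background in 0 of 16 samples. Of 7 genes of vascular cells and fibroblasts 0 passed between knockdown and nontargeting and 1 fell between not transduced and nontargeting. At an unadjusted p below 0.05 limma gave 7548 genes between knockdown and nontargeting and 8080 between nontargeting and not transduced. The part of these cells in the members' differences was not tested.

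The genes whose pattern over the 16 samples was most like a member were found by Pearson correlation among 10683 other named genes with all values. For Dlx5 they were Pdzd8 (r = 0.974), Arhgdia (0.973) and Nxph1 (0.972). For Slc32a1 they were Thy1 (0.966), Cdo1 (0.957) and Cby1 (0.956), for Gad2 Ubash3b (0.962), Faim (0.956) and Nnmt (0.954), and for Gad1 Emp2 (0.927), Pold4 (0.913) and Coq2 (0.910). For Pvalb they were Armc10 (0.956), Slc32a1 (0.949) and Fndc3c1 (0.937), and for Calb2 Oaz1 (0.930), Pcdh19 (0.916) and Rab10 (0.906). Dlx1 and Dlx2, with little spread, reached 0.714 with Vgll2 and 0.819 with Zar1. Samples share groups, arrays and slides, so these are descriptions. The 3 genes most like Calb2 were also lowest in the knockdown, with means of 13.43 for Oaz1, 12.84 for Pcdh19 and 13.55 for Rab10 there and 14.77, 13.87 and 14.64 in the nontargeting group.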

How the data were processed

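The intensity values are, per the file headers, mean signals of spots and the background around them. The software was Agilent Feature Extraction 10.7.3.1, per the submitters' processing notes. The deposited log2 values equal the median signal minus the median background on the log2 scale, centred on each column's median. A label field describing adult dentate gyrus contradicts the culture protocol and was not used. Signals were corrected by normexp (offset 50), loess and Aquantile in limma 3.58.1 with statmod 1.5.0 (R 4.3.3), which gives a compressed scale for dim probes. Outlier spots were set to missing. A probe was kept when at least 4 of 16 samples were well above background and it had 12 or more values, with 2 or more per group (27294 probes). Of 41012 probes 21322 matched a RefSeq symbol. The others kept the array's own name, and each such name counted as a gene. The brightest probe of each of 22907 genes was tested. Plots used matplotlib 3.10.9.

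limma fitted group and dye with the array as a random block (correlation 0.569, 11 residual and 4.05 prior degrees of freedom), with two-sided p-values adjusted by Benjamini-Hochberg over all genes. Other Gad1 probes came from a fit of all probes kept. Replicate numbers also fix the dye and were not treated as pairs. The members, lists and tests were chosen with earlier results of these data known. All members are named. Of each related list, up to 3 genes with the smallest p between knockdown and nontargeting are named, and up to 3 between nontargeting and not transduced. A few marker and list genes were named after their values were seen. A few genes that the rule names are not reported here. Alternatives covered the signal, normalization, filter, probe choice, block and left-out samples.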

Additional observations from a re-analysis of the deposited data

Results flagged for a closer look

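In the Gad1 probe from base 853 of its transcript, knockdown replicate 3 stood apart from the other knockdown samples: it read 7.86 against 7.67 for the nearest of the others, a gap of 0.856 of the group's range. It was 1 of 44 sets of 4 samples examined, and chance flags about 1 in 20.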

How the results depend on the processing

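No result changed direction with a call in any alternative. Slc32a1, Dlx5 and Calb2 kept their knockdown against nontargeting calls in all 34 alternatives. The knockdown against not transduced comparison had 4 members called, and 2 with Agilent's processed signals, with the deposited values, with probes above background in all 16 samples and with each array as 1 value; members called between knockdown and nontargeting numbered 3 with each array as 1 value. Over all genes, overexpression against not transduced had 2 calls with processed signals, 4 with deposited values, 32 with no array block, and 0 with each array as 1 value, with the mean of all probes or with only the 2 groups fitted. With each array as 1 value knockdown against not transduced had 1081 calls. With no array block the all-gene counts were 8290 (knockdown against nontargeting), 9119 (nontargeting against not transduced), 5929 (knockdown against not transduced) and 9146 (overexpression against nontargeting); with only the 2 groups fitted nontargeting against not transduced had 3239. Leaving out a sample or array gave 3 to 6 members for knockdown against nontargeting, 0 to 0 for overexpression against not transduced, 4 to 5 for nontargeting against not transduced and for overexpression against nontargeting, and 2 to 5 for knockdown against not transduced; over all genes it gave 2884 to 5682, 0 to 40, 3702 to 5728, 3038 to 5878 and 1033 to 3558 in that order. The replicate block added the Gad2 call between knockdown and not transduced (adjusted p = 0.0252), which gave 5 members there, and changed no other member's call. Same-numbered knockdown samples correlated with nontargeting samples at 0.137 to 0.253 and with not transduced samples at 0.165 to 0.264 after group means were removed, but at 0.0739 to 0.149 and 0.0374 to 0.131 with the dye removed too, so not all passed 0.1. With deposited values 78.3% of called genes were higher in the knockdown than in the nontargeting group, against 48.6% in the values reported, and the median of all genes moved to 0.16 there, -0.17 for overexpression against not transduced, 0.20 for knockdown against not transduced and -0.21 for overexpression against nontargeting. Pvalb had no deposited values in enough samples. Counting only members above background in both groups, an alternative added after the data were seen, gave 5 members for knockdown against nontargeting and 4 for nontargeting against not transduced and for overexpression against nontargeting. Gad1 missed the threshold between knockdown and nontargeting with processed signals (adjusted p = 0.0678), and between nontargeting and not transduced with only the 2 groups fitted (0.0673). The cause of these changes was not tested. Probes near background limit Pvalb, Dlx2 and Lhx6.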
